A study of Mus musculus with 5 samples.

Results

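The genes described here are 9: Ptprc and Fcgr1, which encode the surface proteins CD45 and CD64 that defined the sorting gate, the other Fc gamma receptor genes Fcgr2b, Fcgr3 and Fcgr4, the receptors' signalling chain Fcer1g, the neonatal Fc receptor Fcgrt, the kinase Syk, and the pan-macrophage surface gene Adgre1 (F4/80). They were taken by symbol from a table of read counts for 21289 genes, in which all 9 were found, and all 9 had enough reads to be tested. The rule names them and sets no threshold on their values. The cells were CD45+CD64+ cells sorted from the hearts of wild-type male mice of the C57BL/6JGpt strain 7 days after an experimental myocardial infarction. In the curcumol group (3 samples) the mice had also been given curcumol, a plant sesquiterpene, by gavage at 30 mg/kg once a day over the 7 days, and in the untreated group (2 samples) they had infarction without curcumol. The labels name no vehicle, and do not say whether a sample is 1 animal or a pool, so the p-values rest on the variation among these 5 samples, part of which may be technical.

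Fc gamma receptors bind the constant part of IgG and let macrophages take up antibody-coated particles. The activating receptors encoded by Fcgr1, Fcgr3 and Fcgr4 assemble with the gamma chain encoded by Fcer1g, whose cytoplasmic activation motif (ITAM) is phosphorylated by Src family kinases and then recruits SYK. FcγRIIB, encoded by Fcgr2b, carries an inhibitory motif (ITIM) of its own and recruits phosphatases such as SHIP1. CD45 is a phosphatase that acts on the Src family kinases of leukocytes, and FcRn, encoded by Fcgrt, returns IgG from endosomes to the cell surface. CD64 is used as a surface marker that separates macrophages and monocytes from other leukocytes, but the remaining Fc receptor genes are also expressed in other leukocytes, Fcgr3 and Fcgr4 in neutrophils and Fcgr2b in B cells among them.

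The receptor genes Fcgr2b and Fcgr3 are close copies in their outer domains, which bears on how far their reads can be told apart. Their aligned coding bases were 86.7% identical over 782 bases, while every other pair of the 4 Fc gamma receptor genes was between 64.1% and 68.6% identical. The longest identical run was 129 bases, shown here with 20 coding bases on either side from GENCODE M21 transcripts (GRCm38), and the bases at which both genes differ are in capitals. These lines are coding bases 258 to 426 of Fcgr2b and 243 to 411 of Fcgr3, with 2 differing bases in 169.
Fcgr2b: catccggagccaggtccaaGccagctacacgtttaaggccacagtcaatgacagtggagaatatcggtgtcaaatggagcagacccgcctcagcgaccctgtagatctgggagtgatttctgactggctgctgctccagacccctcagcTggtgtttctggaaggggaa
Fcgr3: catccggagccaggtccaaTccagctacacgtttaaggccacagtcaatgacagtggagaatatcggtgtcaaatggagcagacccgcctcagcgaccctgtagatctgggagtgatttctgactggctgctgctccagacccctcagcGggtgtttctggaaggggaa
Of all stretches of 50 bases in the longest coding transcript, 12.8% in Fcgr3 and 7.44% in Fcgr2b also occurred in transcripts of another gene. For the other 7 genes this share was 0. Counts of Fcgr2b and Fcgr3 are therefore uncertain to the extent that such shared reads were split or dropped, and the values of both are given with that limit.

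The windows before the start sites of 3 activating receptor genes are shown because each holds a myeloid letter pattern close to its start. In each line the capitals mark GAGGAA (or TTCCTC, its reverse complement), letters recognised by the myeloid factor PU.1. The lines give 250 bases upstream of the start from RefSeq (GRCm38.p6), 5′ to 3′ on the gene's strand, at chr3:96293970-96294219 (minus strand) for Fcgr1, chr1:171059395-171059644 (minus strand) for Fcgr3 and chr1:171018676-171018925 (plus strand) for Fcgr4.
Fcgr1: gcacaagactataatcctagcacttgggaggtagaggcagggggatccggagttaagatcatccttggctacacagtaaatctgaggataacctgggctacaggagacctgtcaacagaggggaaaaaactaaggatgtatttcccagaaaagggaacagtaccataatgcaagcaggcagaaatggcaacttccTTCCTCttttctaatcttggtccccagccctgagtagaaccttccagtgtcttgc
Fcgr3: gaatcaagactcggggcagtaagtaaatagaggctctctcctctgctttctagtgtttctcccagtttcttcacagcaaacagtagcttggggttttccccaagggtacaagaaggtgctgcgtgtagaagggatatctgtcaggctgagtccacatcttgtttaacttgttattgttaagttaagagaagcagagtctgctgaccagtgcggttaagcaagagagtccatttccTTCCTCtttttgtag
Fcgr4: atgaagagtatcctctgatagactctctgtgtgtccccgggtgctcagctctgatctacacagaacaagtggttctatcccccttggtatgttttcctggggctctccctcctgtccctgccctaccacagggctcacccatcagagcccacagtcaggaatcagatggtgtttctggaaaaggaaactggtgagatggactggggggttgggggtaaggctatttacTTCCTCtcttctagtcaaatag
Counted from the start site, the first base of GAGGAA or TTCCTC lay at -55 in Fcgr1, -15 in Fcgr3 and -22 in Fcgr4. Both strands were searched. GAGGAA was present in 23.3% of 32851 promoter windows of the same length. Of the 8 members with a window in the table, 5 held GAGGAA in at least 1 window (Syk at -9 and Ptprc at -158 besides the 3 shown). These 8 members had 11 windows, as Fcgr3, Ptprc and Syk had more than 1, and Ptprc and Syk held GAGGAA in only 1 of theirs. The count is per gene and the share above per window, so they cannot be set against each other. A match of letters is a description and not a binding site.

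Depth was even, with totals of 39768705 to 43315822 counts per library, but the number of genes with at least 1 read was not: it was 12243 and 12915 without and 17188, 17078 and 18501 with curcumol. This gap moves with the group in every comparison below, and its part in the results was not tested. The lowest count of any member in any library was 1734 (Syk in untreated replicate 1), so counting error was small beside the spread between samples. The libraries were distinct, as no pair agreed within sampling noise (chi-square per gene from 92.1 to 350). Pan-macrophage genes had the highest sum of the marker lists in all 5 libraries: the summed level of 19 such markers, led by Lyz2 and Ctss, was 62852 and 63168 CPM without curcumol and 61439 to 63441 CPM with it (CPM, a gene's reads after scaling each library to the same total). None of the 19 was at 0. Lyz2 alone gave 21973 to 24599 CPM of this sum, and its members went both ways: 9 had all curcumol libraries above both untreated ones and 5 had them below (36.6% and 9.31% of all tested genes did). Cd163 stood at 31.7 ± 5.52 and 199.9 ± 118 CPM and Mrc1 at 156 ± 8.87 and 596 ± 169 CPM, while Cd14 stood at 3446 ± 35.3 and 1618 ± 359 CPM and Lgals3 at 3848 ± 144 and 2552 ± 567 CPM (SD, n = 2 and n = 3). Markers of other cells were rarer but differed between groups. The sum of 14 neutrophil markers was 460 to 566 CPM without and 1869 to 4000 CPM with curcumol, that of 10 fibroblast markers 30.7 to 34.3 and 137 to 360 CPM, that of 10 endothelial markers 4.25 to 4.78 and 35.1 to 53.2 CPM, that of 15 T and NK markers 58.2 to 61.8 and 86.1 to 157 CPM, that of 8 mast cell and basophil markers 12.7 to 17.2 and 40.7 to 68.2 CPM, and that of 11 cardiomyocyte markers 26.3 to 62.1 and 121 to 143 CPM. Sums of B and plasma cell markers (372 to 474 and 379 to 670 CPM), dendritic cell markers (590 to 636 and 618 to 700 CPM) and erythroid and platelet markers (962 to 1061 and 972 to 1228 CPM) overlapped between groups, but single genes set the first and the last, and 2 genes the second. Irf8 (359 to 435 CPM) and Bst2 (127 to 200 CPM) gave most of the dendritic sum. Of its 12 markers, 4 had all curcumol libraries above both untreated ones and none below (shares over all tested genes as above). Xbp1 gave 242 to 411 CPM of the B and plasma sum, and of the 12 markers 9 had all curcumol libraries above both untreated ones and none below, Cd79a among them (7.41 ± 3.62 and 29.4 ± 7.89 CPM). Pf4 gave 905 to 1177 CPM of the erythroid and platelet sum, in which Hba-a1 (28.5 ± 15.6 and 10.1 ± 2.998 CPM) and Hbb-bs (14.9 ± 6.47 and 5.75 ± 3.73 CPM) were lower in all curcumol libraries, and Alas2 was at 0 in both untreated ones and at 0.195 to 1.05 CPM with curcumol. Most of the mast cell and basophil sum was Hdc, at 12.6 and 17.2 CPM without and 38.5 to 52.8 CPM with curcumol. In that list Cpa3, Cma1 and Tpsb2 had most of their counts in curcumol replicate 1 (99, 221 and 171), and Fcer1a had at most 2 counts in any library. In bulk samples fewer cells of a type and less RNA per cell cannot be told apart. In both untreated libraries, which held reads of fewer genes in all, several defining markers were at 0, such as Ly6g and Camp of neutrophils, Pax5 and Ebf1 of B cells, Cdh5 and Tek of endothelium, Lum and Pdgfra of fibroblasts and Ncr1 and Prf1 of NK cells. Markers at 0 were 2 of 14 for neutrophils, 4 of 12 for B and plasma cells, 6 of 10 for endothelium, 2 of 10 for fibroblasts and 4 of 15 for T and NK cells. Others of these lists had reads there, such as Csf3r (75.3 and 91.2 CPM), Cd79b (30.5 and 27.9 CPM) and Dcn (12.5 and 11.4 CPM). Some of those at 0 were also scarce with curcumol, as Ncr1 had 1 count in replicate 3.

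At a Benjamini-Hochberg threshold of 0.05 the quasi-likelihood test of edgeR called none of the 9 genes, and 30 of 14508 tested genes (0.207%). No member passed in DESeq2 either (16.8% of all genes did), nor in any of the other alternatives that were run. At an unadjusted p under 0.05 there was 1 member, Fcgr4, in the higher direction, against 18.1% of all tested genes higher and 6.51% lower. Among the 2242 genes at least as abundant as Syk, the least abundant member, these shares were 7.40% and 19.3%. Log2 fold changes below are curcumol minus untreated with trimmed-mean (TMM) scaling, given as value ± SE with a 95% interval. They lie about 0.19 below the same values scaled to total counts (the scale of the CPM), since the median of all tested genes was 0.15 with TMM and 0.34 with total counts. Among the 2242 abundant genes the TMM median was -0.15, and the members' own median was 0.15.

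The gate markers came out on opposite sides. Fcgr1, the gene of CD64 (NCBI gene 14129), stood at 318 and 350 CPM without and at 335, 321 and 267 CPM with curcumol. These values overlapped, and the lowest belonged to curcumol replicate 3. The log2 fold change was -0.30 ± 0.17 (95% interval -0.72 to 0.11, adjusted p = 0.342 in edgeR), which corresponds to a 0.811-fold level with an interval of 0.609 to 1.08. The value was -0.12 scaled to total counts and negative in each of 13 alternatives. Ptprc, the gene of CD45 (NCBI gene 19264), stood at 292 and 244 CPM without and 451, 489 and 318 CPM with curcumol. All 3 curcumol libraries were above both untreated ones, replicate 3 by the least. Its log2 fold change was 0.46 ± 0.24 (-0.11 to 1.02, adjusted p = 0.297 in edgeR). With TMM-scaled CPM the groups overlapped for Ptprc (260 to 321 against 297 to 456).

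**Figure D1:**
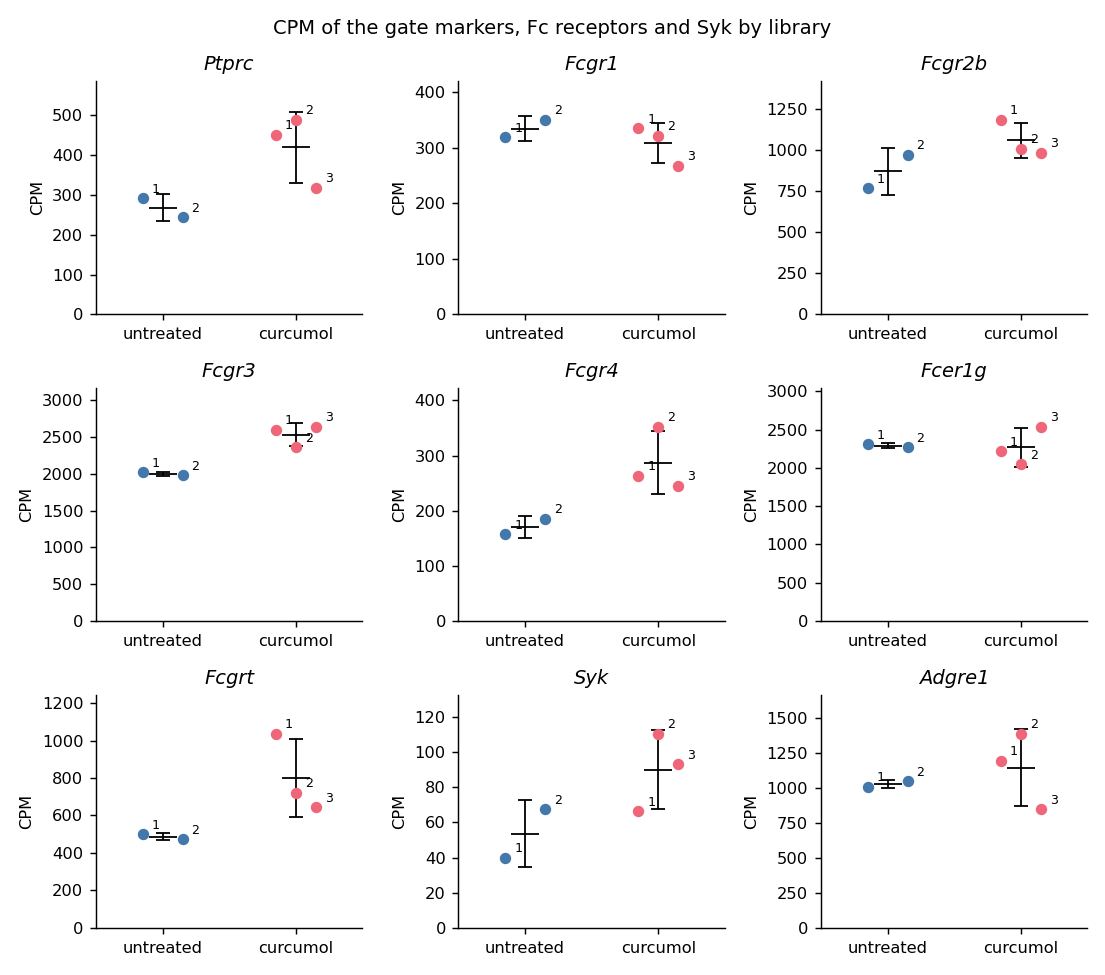
CPM (vertical axes, from 0) of the 9 genes in 2 untreated (blue) and 3 curcumol (red) libraries, numbered by replicate, with bars for the mean and SD. Fcgr3, Fcgr4, Fcgrt, Ptprc and Fcgr2b had all curcumol libraries above both untreated ones, while Fcgr1, Fcer1g, Syk and Adgre1 overlapped.

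A ratio of counts within a library needs no scaling between libraries. There were 1.09 and 1.43 Fcgr1 reads per Ptprc read without and 0.743, 0.658 and 0.840 with curcumol. The groups did not overlap, with a mean log2 ratio of 0.32 ± 0.28 (SD, n = 2) without and -0.43 ± 0.18 (SD, n = 3) with curcumol, a difference of -0.75. In an exact two-sided permutation test p was 0.1, the smallest p that 2 against 3 samples allow, and adjusted over the 3 ratios tested it was 0.3. Leaving out single libraries gave differences from -0.95 to -0.55. Both genes are part of the gate, which selects on the proteins, and protein was not measured here. Sums of neutrophil, T and NK cell markers, cells that carry CD45, were also higher with curcumol (values above), and their part in the Ptprc level was not tested. Among the curcumol libraries, replicate 2 had the highest Ptprc level (489 CPM), the lowest neutrophil sum (1869 CPM) and the highest T and NK sum (157 CPM, beside 86.1 and 120.1 CPM). Replicate 1 had the lowest T and NK sum, and its Ptprc level (451 CPM) was above that of replicate 3 (318 CPM). The order of 3 libraries is a description only.

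Adgre1, which encodes F4/80, an adhesion-type receptor on most mouse tissue macrophages (NCBI gene 13733), stood at 1007 and 1046 CPM without and at 1194, 1388 and 847 CPM with curcumol. The curcumol libraries lay on both sides of the untreated pair, with replicate 3 below it. The log2 fold change was -0.03 ± 0.23 (-0.59 to 0.53, adjusted p = 0.958 in edgeR), and its sign was positive scaled to total counts (0.16), without curcumol replicate 3 (0.15) and with the replicate number as a block (0.15). Per Fcgr1 read there were 3.16 and 2.99 Adgre1 reads without and 3.56, 4.32 and 3.17 with curcumol. The mean log2 ratio was 1.62 ± 0.06 (SD, n = 2) and 1.87 ± 0.23 (SD, n = 3), and the difference of 0.25 gave p = 0.2 in the exact permutation test. Curcumol replicate 3 was nearly level with untreated replicate 1 on this ratio.

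**Figure D2:**
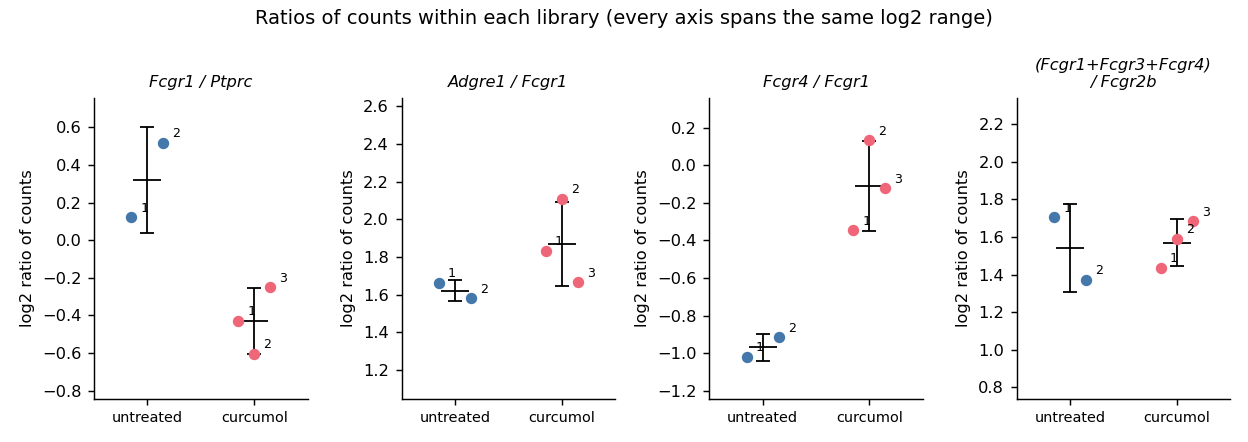
Log2 ratios of counts within each library (vertical axes, each 1.6 log2 units long) for 4 pairs of genes or sums, by group, with replicate numbers and bars for mean and SD. The Fcgr1 to Ptprc ratio was lower and the Fcgr4 to Fcgr1 ratio higher in all 3 curcumol libraries, while the ratio of activating receptors to Fcgr2b overlapped.

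Fcgr4, the gene of the activating receptor FcγRIV, which binds IgG2a and IgG2b (NCBI gene 246256), had the smallest p of the 9 genes. It stood at 157 and 185 CPM without and at 264, 352 and 245 CPM with curcumol, and all curcumol libraries lay above. The log2 fold change was 0.56 ± 0.20 (0.07 to 1.05, adjusted p = 0.151 in edgeR), and it ranged from 0.40 to 0.75 over 13 alternatives, with adjusted p from 0.0808 to 0.321. Syk and Fcgrt had log2 fold changes of about the same size (0.56 and 0.54), and the order of these 3 genes changed between settings. With TMM-scaled CPM the groups still did not overlap (173 to 197 against 229 to 329). Fcgr4 is also a neutrophil gene. The neutrophil marker sum was higher in the curcumol group (1869 to 4000 CPM) than in the untreated group (460 to 566 CPM). Within the curcumol group it was lowest in replicate 2, which had the highest Fcgr4 level. The part of neutrophils in the Fcgr4 difference was not tested. Relative to the CD64 gene, there were 0.494 and 0.530 Fcgr4 reads per Fcgr1 read without and 0.787, 1.10 and 0.919 with curcumol, a mean log2 difference of 0.86. This pair was chosen after the values were seen, so it is given without a test.

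Fcgr3, the gene of FcγRIII and the most abundant receptor of the family (NCBI gene 14131), stood at 2022 and 1980 CPM without and at 2598, 2360 and 2639 CPM with curcumol. The untreated pair was close together and below all curcumol libraries. The log2 fold change was 0.15 ± 0.15 (-0.22 to 0.52, adjusted p = 0.619 in edgeR), and with TMM-scaled CPM the groups overlapped (2110 to 2219 against 2203 to 2549). Its chain partner Fcer1g (NCBI gene 14127) stood at 2311 and 2266 CPM without and at 2217, 2045 and 2537 CPM with curcumol. These overlapped, and the log2 fold change was -0.20 ± 0.16 (-0.60 to 0.19, adjusted p = 0.520 in edgeR), a 0.869-fold level with an interval of 0.662 to 1.14. Scaled to total counts it was -0.01. Fcgr3 reads per Fcer1g read were 0.875 and 0.874 without and 1.17, 1.15 and 1.04 with curcumol, a mean log2 difference of 0.36 (chosen after the values were seen, no test).

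Fcgr2b, the inhibitory receptor gene (NCBI gene 14130), stood at 766 and 971 CPM without and at 1181, 1007 and 981 CPM with curcumol. The second untreated library was close below the lower curcumol libraries, and with TMM-scaled CPM the groups overlapped. The log2 fold change was 0.10 ± 0.19 (-0.35 to 0.55, adjusted p = 0.809 in edgeR), and it was -0.04 without untreated replicate 1 and -0.01 without curcumol replicate 1. The balance of activating to inhibitory receptor transcripts did not separate the groups. For each Fcgr2b read there were 3.26 and 2.59 reads of Fcgr1, Fcgr3 and Fcgr4 together without and 2.71, 3.01 and 3.21 with curcumol. The mean log2 ratio was 1.54 ± 0.23 (SD, n = 2) and 1.57 ± 0.12 (SD, n = 3), a difference of 0.03 (exact permutation p = 0.8). The sign of this difference depended on single libraries and on the receptors summed: leaving out untreated replicate 2 gave -0.13, leaving out curcumol replicate 3 gave -0.026, and summing without Fcgr3 gave -0.058, while with Fcgr4 alone against Fcgr2b it was 0.44 with groups that did not overlap (exact permutation p = 0.2).

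Levels can be compared between genes only per length, as CPM per kilobase of the longest coding transcript in GENCODE M21. On this scale Fcer1g was highest in both groups, 3351 ± 46.6 without and 3318 ± 366 CPM per kb with curcumol (SD, n = 2 and n = 3), followed by Fcgr3 at 1486 ± 21.6 and 1880 ± 112 CPM per kb. Adgre1 (317 ± 8.400 and 353 ± 84.6), Fcgrt (275 ± 11.0 and 452 ± 118) and Fcgr2b (245 ± 40.9 and 298 ± 30.7 CPM per kb) formed the middle of the order. Fcgrt and Fcgr2b overlapped without curcumol, as did Fcgrt with Adgre1, Adgre1 with Fcgr2b and Fcgr2b with Fcgr4 with curcumol. Fcgr4 was above Fcgr1 within each of the 5 libraries. Their ranges overlapped without curcumol (136 ± 15.8 and 129 ± 8.56 CPM per kb) and did not with curcumol (229 ± 45.5 and 119 ± 13.9 CPM per kb). Ptprc followed at 52.9 ± 6.73 and 82.6 ± 17.7 CPM per kb, and Syk was lowest at 10.01 ± 3.61 and 16.8 ± 4.16 CPM per kb.

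Within the family of 4 Fc gamma receptor genes, Fcgr3 made up 76.4% and 72.5% of the summed CPM per kb without and 74.1%, 71.8% and 77.3% with curcumol, and the groups overlapped. Fcgr2b made up 11.0% and 13.5% without and 12.8%, 11.6% and 10.9% with curcumol. Fcgr1 had 6.26% and 6.66% without and 4.98%, 5.09% and 4.07% with curcumol, lower in all 3 (exact permutation p = 0.1, the smallest possible). Fcgr4 had 6.37% and 7.28% without and 8.07%, 11.5% and 7.71% with curcumol, higher in all 3 (exact permutation p = 0.3). Adjusted over these 4 shares the lowest p was 0.4. The shares are parts of a whole, so each depends on the other receptor genes, and the CPM of Fcgr1 itself overlapped between groups.

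**Figure D3:**
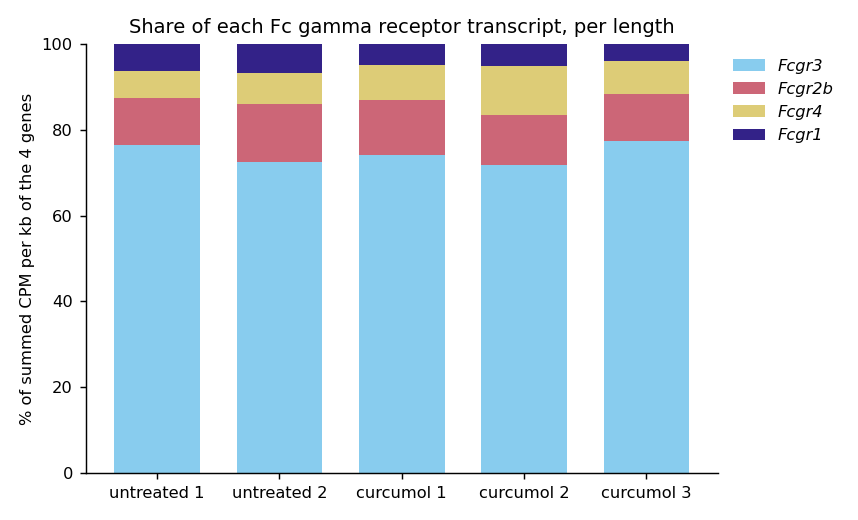
Share of each Fc gamma receptor gene (vertical axis, percent of the summed CPM per kilobase of the 4 genes) in each of the 5 libraries. Fcgr3 takes 71.8% to 77.3% in every library, and Fcgr1 takes a smaller share in the 3 curcumol libraries (4.07% to 5.09%) than in the 2 untreated ones (6.26% and 6.66%).

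Fcgrt, the gene of FcRn (NCBI gene 14132), stood at 500 and 473 CPM without and at 1037, 721 and 644 CPM with curcumol. The untreated libraries were close together, all curcumol libraries lay above them, and replicate 1 was highest. For Fcgrt the log2 fold change was 0.54 ± 0.25 (-0.08 to 1.15, adjusted p = 0.256 in edgeR). It was 0.28 without curcumol replicate 1, so that library carried much of the difference. FcRn needs beta-2 microglobulin as its light chain. B2m stood at 4309 ± 207 CPM (SD, n = 2) without and 4880 ± 1439 CPM (SD, n = 3) with curcumol.

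Syk, the kinase that binds the phosphorylated gamma chain (NCBI gene 20963), stood at 40.03 and 67.4 CPM without and at 66.3, 111 and 93.1 CPM with curcumol. The untreated libraries differed more than for any other member, and the second of them was just above the lowest curcumol library. Its log2 fold change was 0.56 ± 0.29 (-0.15 to 1.27, adjusted p = 0.308 in edgeR). It depended on the untreated libraries: leaving out untreated replicate 1 gave 0.25, and leaving out untreated replicate 2 gave 0.97 (adjusted p = 0.584 and 0.0524 in edgeR).

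**Figure D4:**
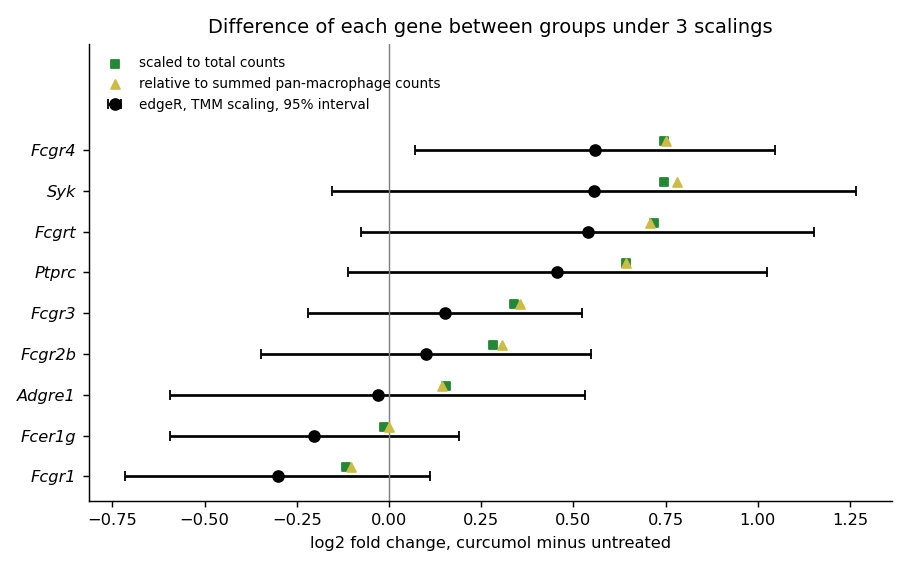
Log2 fold change of each gene (horizontal axis, curcumol minus untreated) with its 95% interval from edgeR with TMM scaling (black), scaled to total counts (green squares) and relative to the summed counts of 19 pan-macrophage genes (yellow triangles). All intervals except that of Fcgr4 include 0, and Adgre1 is the gene whose sign differs between scalings.

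Counted over the 9 genes, 5 had all curcumol libraries above both untreated ones in CPM and none had them below, where 36.6% of all tested genes were higher and 9.31% lower in that way. With TMM-scaled CPM the count was 2 higher (Fcgr4 and Fcgrt) and 2 lower (Fcgr1 and Fcer1g), against 29.5% and 14.9% of all tested genes. Among the 2242 abundant genes the shares were 22.5% higher and 19.1% lower in CPM, and 11.4% higher and 34.0% lower in TMM-scaled CPM. Relative to the summed counts of the 19 pan-macrophage genes, which themselves lay on both sides (above), the log2 differences were 0.78 for Syk, 0.75 for Fcgr4, 0.71 for Fcgrt, 0.64 for Ptprc, 0.36 for Fcgr3, 0.31 for Fcgr2b, 0.14 for Adgre1, -0.00132 for Fcer1g and -0.10 for Fcgr1. Fold changes of abundant genes also differed by transcript length, though not in steady order: over 4 length groups from the shortest (383 to 1604 bases) to the longest (3481 to 18100 bases), each of 549 to 552 genes, the median log2 fold change was -0.17, -0.28, -0.13 and 0.08. Ptprc and Syk are among the longest, with 5074 and 5363 bases, and Fcgr4 among the shortest, with 1256 bases. With a smooth trend on length subtracted, the values were 0.80 for Fcgrt, 0.76 for Fcgr4, 0.47 for Syk, 0.38 for Ptprc, 0.37 for Fcgr3, 0.12 for Fcgr2b, 0.04 for Adgre1, -0.12 for Fcgr1 and -0.13 for Fcer1g. The trend was not centred, so subtracting it also removed the common level of the abundant genes (median -0.15). These shifts are therefore not due to length alone.

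The genes most like each member were sought over the 5 libraries among 4397 other genes with an average log2 CPM of at least 5, by the root mean square difference of log2 CPM after centring. For Fcgr1 these were Eif3l (0.0253), Bzw1 (0.0318) and Lypla1 (0.0322). For Ptprc they were Gatc (0.0407), P4ha1 (0.0480) and Serinc3 (0.0509), and for Fcgr4 they were Atp9b (0.0379), Dhx30 (0.05001) and Tifab (0.0557). Fcgr3 was nearest to Oxct1 (0.0310), C1qb (0.0334) and Vps72 (0.0412), and Fcer1g to Brk1 (0.0192), Myl6 (0.0252) and Spcs1 (0.0277). Among the other members alone, a far smaller pool whose distances cannot be set beside these, the nearest was Adgre1 for Fcgr1 (0.191), Fcgr4 for Ptprc (0.212), Fcgr2b for Fcgr3 (0.153) and Fcgr3 for Fcer1g (0.188). With 5 libraries such nearness is a description only.

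Other genes of the pathway were examined in 7 lists with 137 different genes tested. In each list genes were named mainly by their small p, so a separation of their groups follows in part from that choice. Over all tested genes, 36.6% had all curcumol libraries above both untreated ones in CPM and 9.31% had them below. None passed the adjusted threshold in edgeR, and 20 were higher and 20 lower at an unadjusted p under 0.05 (shares over all genes as above). DESeq2 called 27 genes of the lists, where it called 16.8% of all genes. As background for every list, 8282 of 14508 tested genes were positive, with a median log2 fold change of 0.15 (0.34 scaled to total counts). The 2242 abundant genes had a median of -0.15. Of 7 tested other Fc receptors the median log2 fold change was 0.83, with 5 positive. Fcrls, an Fc receptor-like gene of myeloid cells, stood at 799 and 795 CPM without and at 552, 560 and 587 CPM with curcumol. Its groups did not overlap (log2 fold change -0.68 ± 0.14, adjusted p = 0.0659 in edgeR). Trim21, a cytosolic receptor for IgG, stood at 4.39 ± 2.65 and 10.7 ± 3.62 CPM and Fcrl1, a B cell gene, at 26.8 ± 15.3 and 19.6 ± 4.12 CPM (SD, n = 2 and n = 3). Other lymphocyte Fc receptors of this list, named after their values were seen, were higher or overlapped. Fcmr, the IgM receptor, had 0 and 1 counts without and 603, 274 and 374 with curcumol (adjusted p = 0.0523 in edgeR, the smallest of the list), and Fcrl5, too low to be tested, had 0 and 0 against 7, 42 and 9 counts. Fcrla stood at 2.93 and 0 CPM without and at 5.53, 2.77 and 5.78 CPM with curcumol, and Fcer2a at 3.49 and 0 against 5.14, 1.92 and 3.65 CPM, so both were at 0 in untreated replicate 2 and overlapped between groups.

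Around CD45 and the Src family kinases, 9 genes were tested, 4 of them positive, with a median of -0.16 (0.03 scaled to total counts). The receptor phosphatase Ptprj stood at 16.02 ± 6.81 and 44.1 ± 16.5 CPM, and Ptprcap, a CD45-associated protein of lymphocytes, at 3.67 ± 1.56 and 13.9 ± 3.61 CPM (SD, n = 2 and n = 3). Their adjusted p were 0.112 and 0.0943 in edgeR. T and NK marker sums were also higher with curcumol (above), and the part of lymphocytes in the Ptprcap level was not tested.

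Below Syk, 35 genes were tested and 24 were positive, with a median of 0.27 (0.45 scaled to total counts) beside 0.15 over all tested genes. Pik3cd, the catalytic PI3-kinase subunit of leukocytes, stood at 49.3 and 63.9 CPM without and at 105, 127 and 107 CPM with curcumol. Its groups did not overlap (log2 fold change 0.81 ± 0.19, adjusted p = 0.0703 in edgeR). Vav3, a guanine nucleotide exchange factor, stood at 16.6 ± 0.955 and 37.8 ± 6.67 CPM (adjusted p = 0.0755 in edgeR). Lat2, an adaptor phosphorylated after ITAM signalling, went the other way, at 390 ± 68.7 and 243 ± 32.7 CPM (-0.87 ± 0.18, adjusted p = 0.0659 in edgeR).

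Among 24 inhibitory phosphatases and ITIM receptors, 8 were positive and the median was -0.19 (0.00318 scaled to total counts). The TMM median of the abundant genes was -0.15. Inpp5d encodes SHIP1, the phosphatase recruited by FcγRIIB, and stood at 112 and 130 CPM without and at 194, 352 and 199 CPM with curcumol. All curcumol libraries were above, replicate 2 by the most (log2 fold change 0.84 ± 0.29, adjusted p = 0.133 in edgeR). Lilrb4a, an ITIM receptor of myeloid cells, stood at 1626 ± 77.8 and 1075 ± 102 CPM (-0.78 ± 0.16, adjusted p = 0.0659 in edgeR), and Cd72, an ITIM receptor best known on B cells, at 477 ± 59.6 and 324 ± 90.9 CPM (adjusted p = 0.123 in edgeR). Reads of Lilrb4a may be shared with its close copy Lilrb4b.

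Among 21 other ITAM-coupled receptors and adaptors, 9 were positive and the median was -0.19 (0.00135 scaled to total counts), near the abundant genes' TMM median of -0.15. Clec4e, the Fcer1g-coupled lectin receptor Mincle, stood at 241 and 245 CPM without and at 123, 90.4 and 119 CPM with curcumol. The groups did not overlap, at a log2 fold change of -1.32 ± 0.19 (adjusted p = 0.0597 in edgeR). Treml4 stood at 26.7 ± 4.17 and 11.9 ± 2.14 CPM, and Clec7a, the beta-glucan receptor dectin-1, at 227 ± 71.7 and 171 ± 5.20 CPM (adjusted p = 0.0696 and 0.135 in edgeR). Tyrobp, the adaptor DAP12 that serves as a counterpart to Fcer1g, stood at 1602 ± 38.5 and 1828 ± 343 CPM with overlapping groups.

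Of 32 genes of the phagocytic cup and the oxidase, 12 were positive, with a median of -0.10 (0.09 scaled to total counts). Nckap1l, a subunit of the WAVE complex of leukocytes, stood at 131 ± 4.05 and 298 ± 75.6 CPM (log2 fold change 0.996 ± 0.225, adjusted p = 0.0684 in edgeR), and Dock2, a Rac activator, at 50.9 ± 5.47 and 116 ± 35.8 CPM (adjusted p = 0.0815 in edgeR). Gsn, the actin-severing protein gelsolin, stood at 835 ± 14.2 and 611 ± 67.8 CPM (-0.63 ± 0.17, adjusted p = 0.0802 in edgeR). For genes of FcRn trafficking the median was -0.13 over 9 tested (0.06 scaled to total counts). Rab11fip5, Snx4 and Rab5a, which act in endosomal sorting, stood at 53.6 ± 20.7 and 110 ± 8.07, at 145 ± 9.64 and 111 ± 17.4 and at 135 ± 24.7 and 104 ± 14.0 CPM (adjusted p from 0.122 to 0.169 in edgeR).

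**Figure D5:**
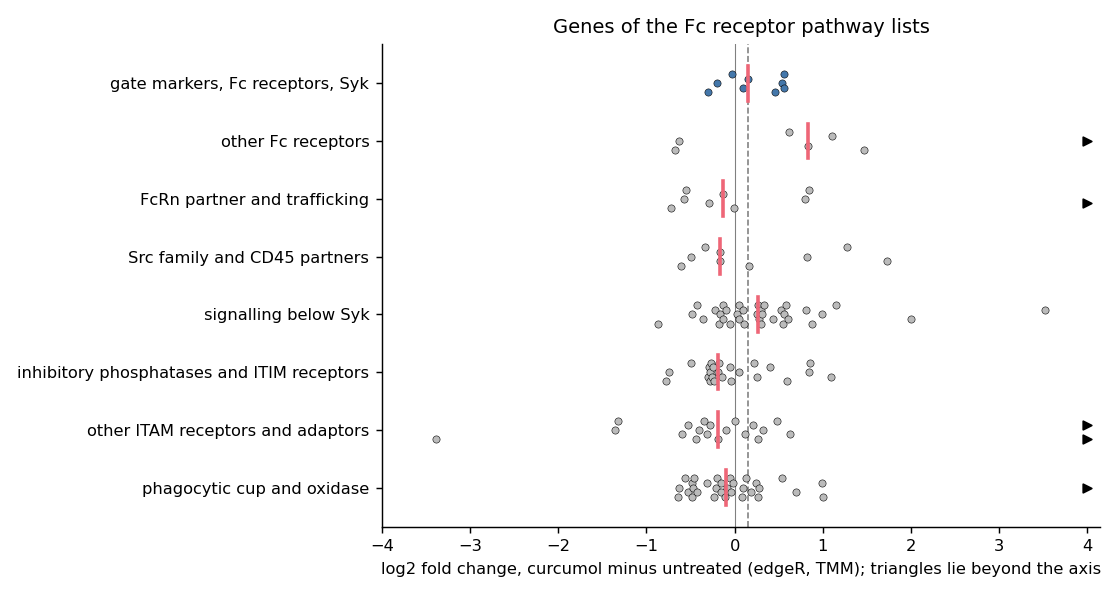
Log2 fold change (horizontal axis, curcumol minus untreated, edgeR with TMM scaling) of each tested gene, 1 point per gene, in the 9 genes described and in 7 pathway lists. Red bars mark list medians, the dashed line the median of all tested genes (0.15), and triangles mark genes beyond the right end of the axis. The 9 genes span -0.30 to 0.56.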

How the data were processed

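Gene-level read counts of bulk RNA sequencing were used for 5 samples, and columns, groups and replicate numbers were tied to samples by their titles. The authors deposited whole-number counts per gene without normalization. The submitters' processing notes name fastp, HISAT2, Bowtie2 and HTSeq. Their versions, the genome build and the annotation: not given in the sources used here. TRIzol was used for RNA, per the labels' protocols, and 2 library kits are named, 1 of them stranded, so strandedness is not settled. CPM were computed on total counts, and 3 counts correspond to 0.0693 to 0.0754 CPM. All genes were fitted together in R 4.3.3 and edgeR 4.0.16 with TMM scaling (factors 0.911 to 1.07), filterByExpr (minimum count 10), a quasi-likelihood test with group as the only term, 3 residual degrees of freedom and Benjamini-Hochberg adjustment over 14508 genes at 0.05, after tests on simulated data. Alternatives were DESeq2 1.42.0, limma-voom (limma 3.58.1) with and without library weights, RLE and total-count scaling, other filters, a replicate block and leaving out each sample. Scaling to pan-macrophage genes, TMM-scaled overlap and the length trend were added after seeing the data. The tests of the receptor shares were not among the planned tests. The members and lists were chosen with earlier results of these data known. Named are the members, the 3 list genes with the smallest p at an average log2 CPM of at least 3, the top marker genes, the 3 genes most like a member, and Tyrobp, B2m, and markers at 0 or named beside their sums, the last 2 kinds chosen after their values were seen. One of these list genes is not reported here. Promoter sequences are RefSeq's, transcripts GENCODE's.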

Additional observations from a re-analysis of the deposited data

How the results depend on the processing

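None of the 9 genes passed the threshold under any of 13 alternatives. Their signs held except for Fcgr2b and Adgre1. Fcgr2b was at -0.038 without untreated replicate 1 and -0.011 without curcumol replicate 1 (-0.038 to 0.28 when leaving out 1 library). Adgre1 was at 0.16 with total counts only, 0.15 with a replicate block and 0.15 without curcumol replicate 3 (-0.17 to 0.15 when leaving out 1 library). Relative to pan-macrophage counts Adgre1 was at 0.14. With the length trend removed, and the common level of abundant genes with it, Adgre1 was at 0.035. Fcrl1 was at 0.11 without untreated replicate 2 (-1.10 to 0.11 when leaving out 1 library). The log2 ratio of activating to inhibitory receptors turned to -0.13 without untreated replicate 2, -0.026 without curcumol replicate 3 (-0.13 to 0.20 when leaving out 1 library) and -0.058 with Fcgr1 and Fcgr4 only. The count of all genes past the threshold, 30, was 10 with total counts only, 2653 with DESeq2, 1661 with limma-voom, 8 with library weights, 416 with no filter, 98 with the CPM filter and 0 to 3531 when leaving out 1 library. The count over the pathway lists, 0, was 27 with DESeq2, 15 with limma-voom, 4 with no filter, 2 with the CPM filter and 0 to 24 when leaving out 1 library. The causes were not tested. Replicate numbers 1 and 2 occur in both groups, and deviations of same-numbered samples were hardly correlated (0.01 for both numbers). With 2 untreated libraries, whose deviations mirror each other, this cannot settle whether samples were paired. In fits that leave 1 untreated library, that library is assumed to vary like the others. With the replicate block 45 genes, 0 members and 0 pathway genes passed. Only 2 untreated libraries limit precision: the log2 interval of Syk ran from -0.15 to 1.27.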
